A study of Arabidopsis thaliana with 18 samples.

Results

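The organ by compound interaction compares what ACC and KMBA did to transcript levels in roots with what they did in shoots of the same kind of plant. For each gene, the difference between ACC and KMBA on log2(FPKM + 1) was taken in roots and in shoots, and the interaction is the root difference minus the shoot difference. It is positive where ACC relative to KMBA was higher in roots than in shoots, and negative where it was higher in shoots than in roots. Genes called for the interaction at an adjusted p under 0.05 are the members described here, and they numbered 1895 of 18357 genes tested (10.3%) in a table of 27371 genes. They came from 12 of the 18 libraries of the series, made from polyA RNA of Col-0 plants of Arabidopsis thaliana, 21 days old. Plants germinated for 5 days and were then moved for 16 days to medium with 100 mM NaCl and either 100 nM ACC or 100 nM KMBA. Roots and shoots were cut apart, which gave 4 groups of 3 libraries (ACC roots, KMBA roots, ACC shoots, KMBA shoots). All 4 groups were salt-stressed and carried a compound, and roots without a compound were not analysed here. The series also held salt-grown shoots without a compound, which entered only an alternative fit and were not set against either compound here. In the differences described below, a gene that was higher with ACC can thus equally be read as lower with KMBA.

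ACC is the direct precursor that plants oxidise to ethylene, a gas hormone sensed by receptors of the endoplasmic reticulum. When ethylene binds, a kinase that represses the pathway is released and transcription factors of the EIN3 family accumulate, which switch on ERF genes and, in roots, genes of root hair growth. KMBA, a keto acid close to methionine in structure, is released by the root endophyte SA187 and can likewise serve as a source of ethylene. Ethylene acts together with jasmonate and against or beside salicylate and abscisic acid, hormones of defense and of water loss, and its effects are known to differ between roots and shoots.

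Summed FPKM of the 12 libraries ran from 357510 to 588780, and 14486 to 17212 genes reached 1 FPKM. Within a group, libraries correlated across genes at a Pearson r of at least 0.979 on the log2 scale (genes are not independent replicates). Organ labels were checked against markers. Of 11 root markers, 9 to 11 reached 1 FPKM in root libraries and 3 in every shoot library. For the interaction, 3 of the 11 were called positive and 3 negative, beside 2.93% and 7.4% of all tested genes. Of these calls, 5 differed between the compounds in roots alone, so the markers check the organ and not the cell makeup of roots. Of 9 leaf and stomata markers, 2 or 3 reached 1 FPKM in root libraries and 8 or 9 in shoot libraries. Among the latter, FMA and YAB3 reached at most 0.0373 FPKM in roots and lay between 3.24 and 6.61 FPKM in all shoots. PYK10, a root glucosidase, was listed at 0 in KMBA roots replicate 1 beside 821 and 965 FPKM in the other KMBA roots, and such an isolated 0 may be a failed estimate. All ACC roots were sequenced in pool 4 and all KMBA roots in pool 2, so in roots the compound and the pool cannot be told apart, and this holds for every interaction below. Shoots of both compounds were spread unevenly over pools 1 and 3. ACC replicate 1 and KMBA replicates 1 and 2 were in pool 1, and the other shoots in pool 3, so compound and pool are partly mixed there too. P-values measure the spread between these libraries, and the labels do not say whether replicates came from separate plates.

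For most members the difference between ACC and KMBA passed in a single organ, and a difference that did not pass may still exist. The fit used 1 error estimate per gene for both organs. A wide spread in 1 organ could thus keep a difference in the other from passing, and values at or near 0 in 1 organ could help it pass. Below, a gene that differed in an organ alone is a gene whose difference passed only there. Of the 1895 genes, 537 (2.93% of those tested) had a positive and 1358 (7.40%) a negative interaction. The difference passed an adjusted p of 0.05 in roots alone for 993 members, of which 664 were lower and 329 higher with ACC, and in shoots alone for 637, of which 484 were higher and 153 lower with ACC. It passed in both organs with opposite signs for 110 members, called reversed below, and in 94 of these ACC was lower in roots and higher in shoots. Another 25 passed in both organs with the same sign, and 130 passed in neither organ although the interaction did. For comparison, the difference passed in 15.6% of all tested genes in roots and in 12.2% in shoots. Signs in the organs, whether or not they passed, were opposite in 1331 members (70.2%) and in 39.6% of all tested genes. Calling genes on the interaction itself raises that share. These classes reuse the fit that called the genes, so they describe the members and test nothing further. Single libraries moved them: members in roots alone numbered 660, 650 and 649 without ACC roots replicate 2, KMBA roots replicate 1 and KMBA roots replicate 3, and members in shoots alone 418 without KMBA roots replicate 1. The 25 with the same sign became 10, 16 and 9 without ACC roots replicate 2, KMBA shoots replicate 1 and KMBA roots replicate 1, and the 130 in neither organ became 80 without ACC roots replicate 2.

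The size of the interaction was mostly modest. Among members, 421 had an absolute interaction over 1 on the log2 scale and 51 over 2, and the smallest was 0.28. The last gene inside the threshold was AT3G01190 with an interaction of -0.37 (adjusted p = 0.04997), and the first outside was AT4G33120 with -0.40 (adjusted p = 0.0502). Where a fold over 2 was also asked for, 215 genes differed in roots (1.17%) and 224 in shoots (1.22%), and 173 and 162 of these were members. With ACC, 99 of them were higher in roots (0.539% of genes tested) and 116 lower (0.632%), while 169 were higher in shoots (0.921%) and 55 lower (0.3%). Only 15 genes passed that limit in both organs, 12 in the same direction, with 0 members among them, and 3 in opposite directions, all members. Over all tested genes the root and shoot differences were weakly correlated, with a Pearson r of 0.18 and a Spearman rho of 0.25. The split between positive and negative calls depended on the scaling, since removing from each library a smooth trend on GC content and transcript length left 790 positive and 1080 negative calls (42.2% positive against 28.3%). Median-ratio scaling gave 622 positive and 1149 negative calls, and 1567 of the members were still called. The number of members fell to 1227 without ACC roots replicate 2 and to 1241 without KMBA roots replicate 1, with 325 positive calls in the former. Negative calls were 902 and 853 without these libraries and 877 without KMBA roots replicate 3. The 110 reversed genes became 52, 73, 59, 63 and 53 without ACC roots replicate 2, ACC roots replicate 3, KMBA shoots replicate 2, KMBA roots replicate 1 and KMBA roots replicate 3.

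**Figure D1:**
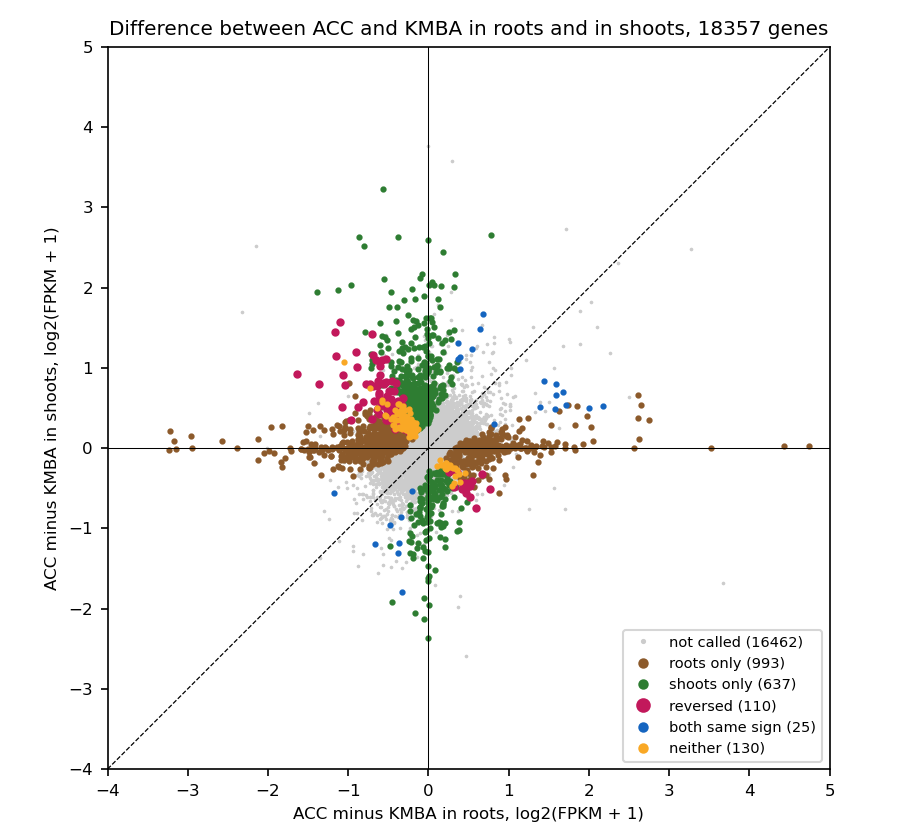
Each point is a gene, with ACC minus KMBA in roots on the x axis and in shoots on the y axis, both in log2(FPKM + 1), and the dashed line marks equal differences. For most members the difference passed in a single organ, roots for 993 and shoots for 637, and the 110 reversed genes lie mainly at upper left.

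Part of this pattern is where a gene is expressed at all. Counting a gene as expressed in an organ where its mean reached 1 FPKM with either compound, 1109 members (58.5%) were expressed in both organs, against 77.6% of all tested genes, while 619 were expressed in roots alone and 167 in shoots alone. Of the 993 members that differed in roots alone, 582 were below 1 FPKM in shoots, so their interaction restates a root difference. Of the 637 that differed in shoots alone, 479 were expressed in both organs. Of the 110 reversed genes, 96 were expressed in both.

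Gene lists were described by the number of members called and the median interaction, beside the median of -0.05 over all tested genes. Every count of calls in a list is to be read beside 2.93% positive and 7.4% negative calls over all tested genes. The median shoot difference was most negative for jasmonate genes, and the median root differences for anthocyanin and triterpene genes were the most negative of the lists plotted.

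**Figure D2:**
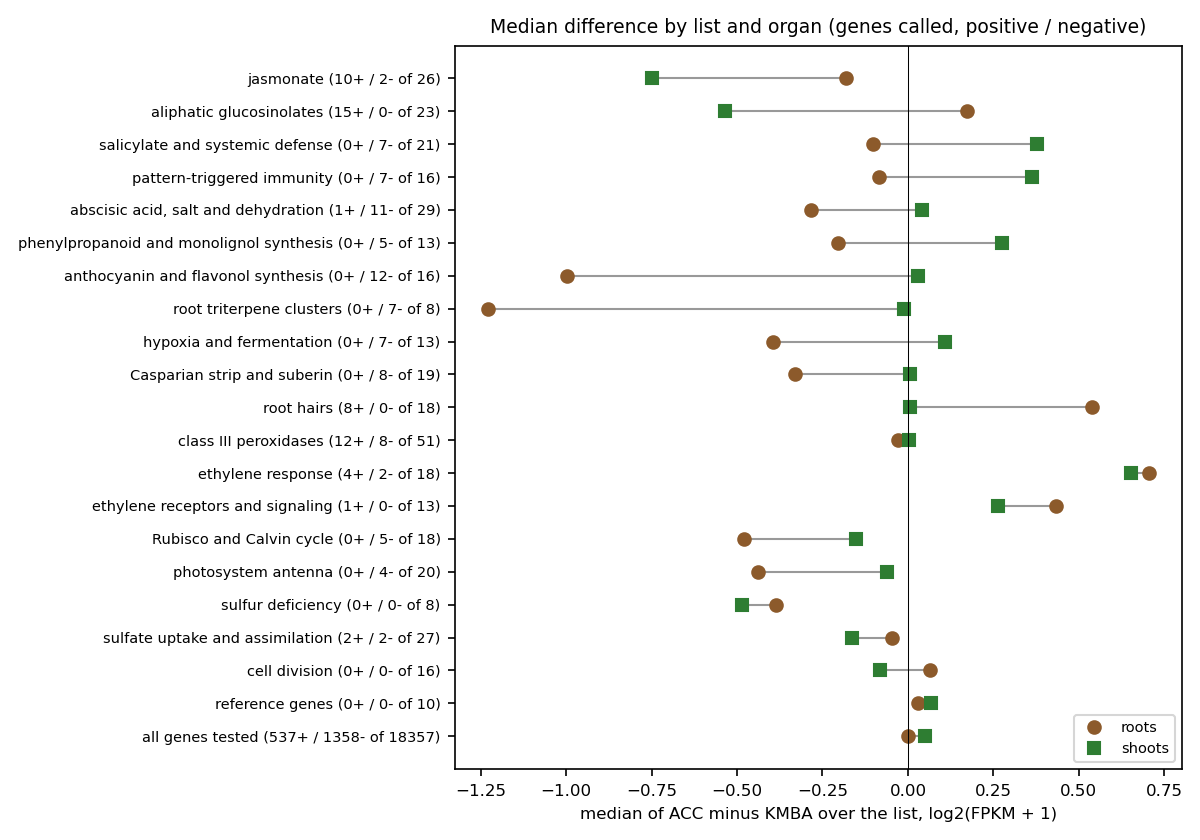
For 20 lists and for all tested genes, the median of ACC minus KMBA in log2(FPKM + 1) is given for roots (circles) and shoots (squares), with the number of genes called for a positive (+) or negative (-) interaction beside each name. Jasmonate and aliphatic glucosinolate lists have shoot medians of -0.75 and -0.54, anthocyanin and triterpene lists root medians of -0.996 and -1.23, and the reference genes have none called of 10.

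Jasmonate is an oxylipin hormone of wounding and defense, made from plastid fatty acids by lipoxygenases, allene oxide synthase and cyclase and a peroxisomal reductase. Of 26 tested genes of its synthesis and response, 10 had a positive and 2 a negative interaction (median 0.45). Of these 12, 11 differed in shoots alone and 1 in neither organ, and 8 of the 12 were expressed in both organs. The 2 negative calls, named here after their values were seen, were JAZ1 and JAZ5, repressors of jasmonate responses. LOX3 (AT1G17420), a lipoxygenase that opens the pathway, was at 9.26, 13.3 and 7.28 FPKM in ACC shoots and at 53.7, 32.8 and 53.5 FPKM in KMBA shoots. It stayed at or under 0.11 FPKM in all 6 root libraries. The 2 shoot groups did not overlap, which was true of 29.5% of all tested genes, and the shoot difference was -2.13 on the log2 scale (adjusted p = 0.00012). LOX4 (AT1G72520), another lipoxygenase of the same kind, was at 11.5, 9.05 and 13.3 FPKM in ACC shoots and 27.1, 25.9 and 27.0 FPKM in KMBA shoots, and at most 0.267 FPKM in roots.

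AOC1 (AT3G25760), an allene oxide cyclase, read 30.3, 100.1 and 40.4 FPKM with ACC and 203, 167 and 225 FPKM with KMBA in shoots, and at most 0.195 FPKM in roots. The next enzymes of the path were present in roots too, with overlapping values there. OPR3 (AT2G06050), the reductase that acts on the cyclised product, was at 20.8, 39.3 and 25.1 FPKM in ACC shoots against 86.7, 74.9 and 94.5 FPKM in KMBA shoots, a difference of -1.60 (adjusted p = 0.000291). In roots its values of 6.39, 6.46 and 6.17 FPKM with ACC overlapped those of 6.20, 5.80 and 6.95 FPKM with KMBA, and the interaction was 1.61 ± 0.25 (SE, adjusted p = 0.00236). OPCL1 (AT1G20510), which activates the side chain before it is shortened, was at 19.7, 17.9 and 15.3 FPKM in ACC shoots and 31.4, 30.1 and 33.2 FPKM in KMBA shoots. Its 6 root values lay together between 13.4 and 14.9 FPKM, so the interaction of 0.84 ± 0.12 (adjusted p = 0.00177) came from shoots. With a pseudocount of 0.1 the jasmonate list had 4 positive calls, and AOC1 and LOX4 were not called.

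Aliphatic glucosinolates are sulfur compounds made from methionine that deter herbivores. Of 23 tested genes, 15 had a positive interaction and 0 a negative one (median 0.73), 13 of them differing in shoots alone and 2 reversed, and 10 of the 15 were expressed in both organs. CYP79F1 (AT1G16410), which makes the aldoxime from chain-elongated methionine, was at 17.7, 10.7 and 7.14 FPKM in ACC shoots and 37.4, 33.9 and 37.9 FPKM in KMBA shoots, and at most 0.0329 FPKM in roots. IPMI1 (AT3G58990), a subunit of the isomerase of chain elongation, was at 11.1, 8.57 and 6.71 FPKM with ACC and 22.8, 19.1 and 23.1 FPKM with KMBA in shoots. In roots it was at 29.5, 23.8 and 22.6 against 27.0, 17.3 and 21.9 FPKM, which overlap, and the interaction was 1.43 ± 0.25 (adjusted p = 0.00485).

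CYP83A1 (AT4G13770), the next cytochrome P450 of that pathway, reversed. In roots it was higher with ACC, at 59.6, 53.6 and 45.7 against 41.7, 33.9 and 34.3 FPKM (0.52, adjusted p = 0.0156), and in shoots it was lower with ACC, at 81.1, 63.7 and 63.8 against 112, 99.6 and 106 FPKM (-0.61, adjusted p = 0.0093). Its interaction was 1.12 ± 0.18 (adjusted p = 0.00248). FMO GS-OX3 (AT1G62560), which oxidises the side chain, was at 2.45, 2.17 and 2.05 FPKM in ACC shoots and 5.39, 4.66 and 5.16 FPKM in KMBA shoots, with overlapping root values (adjusted p = 0.417). Leaving out any 1 library left 14 to 16 genes of the list called. By contrast, the sulfur deficiency list had 0 of 8 genes called, with medians of -0.39 in roots and -0.49 in shoots. In limma 0 of its genes had an unadjusted p under 0.05, and 0 were called without the trend. Sulfate uptake and assimilation had 2 positive and 2 negative calls of 27, beside 2.93% positive and 7.4% negative over all genes tested.

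**Figure D3:**
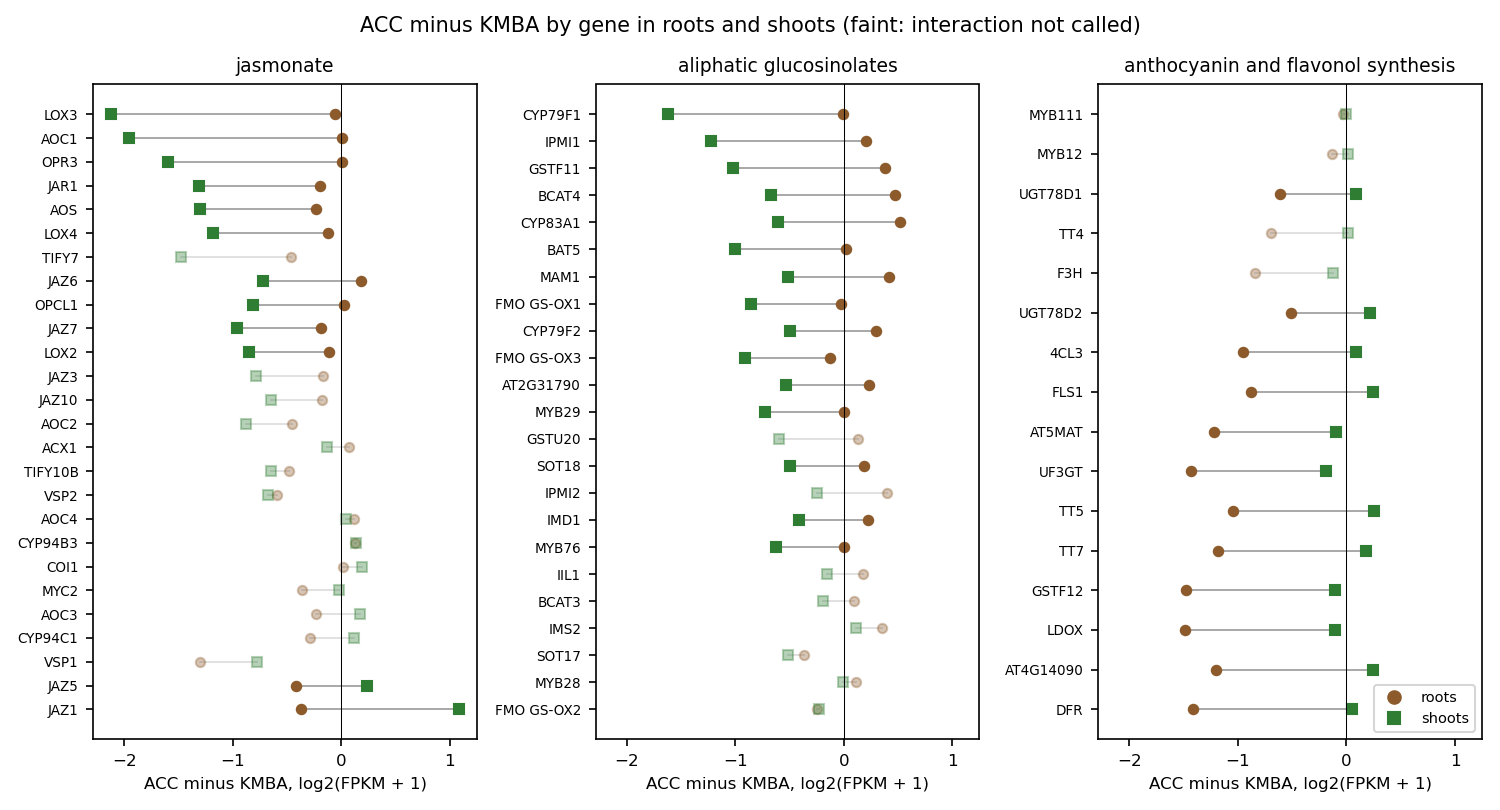
Each row is a gene of the jasmonate, aliphatic glucosinolate or anthocyanin and flavonol list, ordered by its interaction, with ACC minus KMBA in log2(FPKM + 1) in roots (circles) and shoots (squares). In the first 2 lists the shoot symbols of called genes (solid) lie mostly left of 0, as for LOX3 at -2.13, while in the anthocyanin list the root symbols lie left of 0, as for TT7 at -1.18.

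Several salicylate genes were higher with ACC in shoots. Of 21 tested genes of salicylate and systemic defense, 0 had a positive and 7 a negative interaction (median -0.53), 5 of them differing in shoots alone. At a fold over 2, 4 genes of the list were higher with ACC in shoots (0.921% of all genes tested were) and 1 was lower (0.3%). The lower one was WRKY18 (-1.06, adjusted p = 0.00664), which was not called for the interaction and is named after its value was seen. BGL2 (AT3G57260), a glucanase also known as PR2, was at 29.7, 26.4 and 25.2 FPKM in ACC shoots and 0.303, 0.918 and 9.63 FPKM in KMBA shoots. KMBA shoots replicate 3 stood far above the other 2, yet below all ACC shoots, and in pool 3, which it shared with ACC shoots replicates 2 and 3, the values were 9.63 against 26.4 and 25.2 FPKM. Roots held 0.376 to 0.392 FPKM with ACC and 0.605 to 1.99 FPKM with KMBA, and that difference did not pass (adjusted p = 0.573). The interaction of -3.79 ± 0.80 (adjusted p = 0.0116) was the most negative of all members. With all 18 libraries in the fit, which adds shoots of 2 more groups, BGL2, PR1 and PR5 were not called. PR1 (AT2G14610), the classic salicylate marker, was at 4.08, 3.56 and 8.60 FPKM in ACC shoots and was listed at 0 in all KMBA shoots and all roots. It reached 1 FPKM in the ACC shoot libraries alone, so it was not tested when an ACC shoot library was left out. PR5 (AT1G75040), a thaumatin-like protein, was at 5.23, 8.37 and 4.73 FPKM in ACC shoots, 1.70, 1.77 and 2.37 FPKM in KMBA shoots, and at most 0.629 FPKM in roots.

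Other named genes higher with ACC in shoots had annotations of several kinds, or none. GRX480 (AT1G28480), a glutaredoxin that joins salicylate and jasmonate signals, was at 14.1, 3.69 and 12.5 FPKM in ACC shoots and 1.24, 0.242 and 0.432 FPKM in KMBA shoots (2.63, adjusted p = 0.000985). Its root values were 5.22, 4.93 and 5.02 with ACC and 11, 8.87 and 10.4 FPKM with KMBA, which do not overlap but did not pass (-0.87, adjusted p = 0.125). Root groups did not overlap in 38.3% of all tested genes. The SE of GRX480 was 0.35 in both organs, since the wide shoot spread also entered the root test. AT5G10760, an aspartyl protease, was at 18, 14.9 and 20.05 against 0.732, 1.21 and 5.98 FPKM in shoots. CML37 (AT5G42380), a calmodulin-like calcium sensor, was at 15.7, 8.47 and 26.9 against 0.655, 2.95 and 2.62 FPKM there. AT1G53625, which has no described function in the annotation, was at 13.9, 14.8 and 20.6 against 0.447, 8.23 and 5.55 FPKM in shoots, with an interaction of -3.34 ± 0.72 (adjusted p = 0.0126). AT5G10760, CML37 and AT1G53625 were also not called with all 18 libraries. AT4G12490, a lipid-transfer-like protein, was at 7.29, 2.83 and 13.6 FPKM in ACC shoots against 0.294, 0.192 and 0.207 FPKM, but its interaction (-1.87, adjusted p = 0.0401) lost its call in 13 alternatives. Among these, 10 left out 1 library, namely any library but ACC shoots replicate 2 and ACC roots replicate 1. In the reference 31.6% of its stretches of 50 bases also belong to another annotated gene at the same place.

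Among shoot genes lower with ACC, AT1G66100, a thionin (a small antimicrobial peptide), was at 2.17, 5.32 and 2.63 FPKM with ACC and 15.7, 17.9 and 30.9 FPKM with KMBA, and was listed at 0 in all roots. NUDT8 (AT5G47240), a nudix hydrolase, was at 1.52, 4.71 and 2.52 against 11.3, 12.2 and 21.6 FPKM in shoots. Its root values overlapped, at 1.02, 2.28 and 3.05 against 2.42, 2.01 and 2.67 FPKM. Its interaction of 1.90 ± 0.45 (adjusted p = 0.0200) was not called without ACC roots replicate 2 or with a pseudocount of 0.1.

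Pattern-triggered immunity is the response that starts when surface receptors bind microbial molecules, and WRKY factors act in it by binding W-box motifs. Of 16 tested genes, 7 had a negative and 0 a positive interaction (median -0.48), all 7 expressed in both organs and 5 differing in shoots alone. The number was 4 without KMBA roots replicate 3. FLS2 (AT5G46330), the receptor for bacterial flagellin, was at 21.6, 20.5 and 18.6 FPKM in ACC shoots and 8.40, 10.4 and 8.11 FPKM in KMBA shoots (1.09, adjusted p = 0.00012), with 1.15 to 1.58 FPKM in all roots. WRKY33 (AT2G38470), a transcription factor of defense against necrotrophs, was at 14.4, 9.75 and 12.3 against 6.61, 4.89 and 5.20 FPKM in shoots. Its 6 root values lay between 12.5 and 15.4 FPKM and overlapped, which gave an interaction of -0.99 ± 0.19 (adjusted p = 0.00679).

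YLS9 (AT2G35980), a harpin-induced-like protein used as an immunity marker, had values of 8.59, 3.33 and 10.0 FPKM in ACC shoots and 0.217, 1.90 and 1.16 FPKM in KMBA shoots. In roots they were 13.1, 12.3 and 12.7 FPKM with ACC and 35.9, 19.3 and 34.5 FPKM with KMBA (-1.12, adjusted p = 0.0594), and the interaction was -3.09 ± 0.52 (adjusted p = 0.00365). BIK1 (AT2G39660), a kinase downstream of such receptors, was at 4.46, 4.23 and 4.56 against 3.03, 3.40 and 3.26 FPKM in shoots and 9, 9.42 and 9.99 against 9.67, 9.69 and 10.5 FPKM in roots, and its interaction of -0.42 was not called without KMBA roots replicate 3.

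The promoters of the 3 of these genes that hold a W-box within 250 bases before the annotated start are shown. They were chosen for the motif, so its presence in them is no evidence of a shared control. FLS2, also higher with ACC in shoots, is left out because it lacks the motif there. The sequences are those of RefSeq in TAIR10.1, read 5′ to 3′ on the gene's strand, with W-boxes (TTGACC or TTGACT on either strand, so also GGTCAA and AGTCAA) in capitals.
YLS9 promoter, chr2:15110242-15110491, plus strand: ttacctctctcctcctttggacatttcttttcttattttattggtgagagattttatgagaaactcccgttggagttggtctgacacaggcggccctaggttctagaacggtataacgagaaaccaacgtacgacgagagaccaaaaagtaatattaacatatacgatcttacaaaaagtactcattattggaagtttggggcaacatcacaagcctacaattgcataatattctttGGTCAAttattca
WRKY33 promoter, chr2:16107985-16108234, plus strand: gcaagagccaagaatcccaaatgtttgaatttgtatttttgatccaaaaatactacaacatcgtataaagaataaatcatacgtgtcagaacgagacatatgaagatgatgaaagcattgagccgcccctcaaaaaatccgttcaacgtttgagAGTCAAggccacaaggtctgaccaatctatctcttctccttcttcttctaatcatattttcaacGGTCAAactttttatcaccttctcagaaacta
BIK1 promoter, chr2:16531277-16531526, plus strand: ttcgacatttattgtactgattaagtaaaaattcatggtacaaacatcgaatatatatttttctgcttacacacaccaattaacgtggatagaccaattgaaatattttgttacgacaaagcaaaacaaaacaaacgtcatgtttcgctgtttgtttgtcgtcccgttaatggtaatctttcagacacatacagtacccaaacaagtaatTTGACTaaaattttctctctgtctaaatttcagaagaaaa
W-boxes were found in 10 of the 16 tested promoters of the immunity list (62.5%), in 35.5% of promoters of all genes with a negative interaction, in 29.2% of those with a positive one and in 28.5% of all tested genes. FLS2 has none in this window. The G-box CACGTG, the motif bound by the jasmonate factor MYC2 and its relatives, was in 2 of 12 promoters of called jasmonate genes and in 7.18% of all tested genes, and LOX3, LOX4, OPR3, AOC1 and OPCL1 have none in the window. These are matches of letters and say nothing of binding.

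Anthocyanins and flavonols are flavonoid pigments made from phenylalanine. Of 16 tested genes of their synthesis, 12 had a negative and 0 a positive interaction (median -1.13). All 12 differed in roots alone, where ACC was lower, and all 12 were expressed in both organs. TT5 (AT3G55120), chalcone isomerase, was at 34.5, 38.1 and 30.5 FPKM in ACC roots and 72.3, 79.8 and 63.4 FPKM in KMBA roots (-1.04, adjusted p = 6.12e-05). In shoots it was at 5.14, 4.33 and 5.13 against 4.1, 3.59 and 4.08 FPKM (0.25, adjusted p = 0.146), and the interaction was -1.29 ± 0.15 (adjusted p = 0.000501). TT7 (AT5G07990), the flavonoid hydroxylase, was at 10.4, 9.62 and 9.07 FPKM in ACC roots and 24.4, 24.6 and 21.0 FPKM in KMBA roots, with 1.77 to 2.82 FPKM in all shoots.

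AT4G14090, a glucosyltransferase of anthocyanins, was at 14.8, 17.5 and 17.3 against 43.1, 38.4 and 36.6 FPKM in roots and at 14.6, 10.1 and 13.2 against 12, 9.75 and 9.62 FPKM in shoots. Its shoot levels with ACC were close to its root levels with ACC, so the interaction of -1.45 ± 0.18 (adjusted p = 0.000776) did not rest on a low level in shoots. 4CL3 (AT1G65060), a ligase that feeds the flavonoid branch, was at 2.96, 2.88 and 2.08 against 6.23, 6.87 and 5.00 FPKM in roots. Leaving out 1 library left 10 to 14 of the genes called. Upstream of them, 5 of 13 genes of the general phenylpropanoid path had a negative interaction and 0 a positive one. PAL1 (AT2G37040) and PAL2 (AT3G53260), the lyases that remove ammonia from phenylalanine, were both reversed. PAL2 was at 123, 122 and 106 FPKM in ACC roots and 187, 197 and 191 FPKM in KMBA roots (-0.71, adjusted p = 0.000126), and at 22.3, 19.9 and 21.2 against 15.9, 17.1 and 15.6 FPKM in shoots (0.36, adjusted p = 0.0126). PAL1 was lower with ACC in roots (-0.45, adjusted p = 0.00879) and higher in shoots (0.37, adjusted p = 0.0308). PAL1 and PAL2 transcripts share 1.08% of the stretches of 50 bases in PAL1, so few reads could be shared by them.

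Triterpenes of Arabidopsis roots are made by clustered genes. Of 8 tested genes of these clusters, 7 had a negative and 0 a positive interaction (median -1.22), all 7 lower with ACC in roots and below 1 FPKM in shoots, so for these the interaction is the root difference. MRN1 (AT5G42600), which makes marneral, was at 10.7, 11.9 and 10.3 FPKM in ACC roots and 41.4, 27.8 and 36.6 FPKM in KMBA roots (-1.58, adjusted p = 6.46e-06). Its neighbours CYP71A16 (AT5G42590) and CYP705A12 (AT5G42580) were at 14.3, 13.2 and 14.5 against 49.2, 36.0 and 44.4 FPKM and at 19.4, 16.0 and 15.2 against 68.6, 45.9 and 59.7 FPKM. CYP705A5 (AT5G47990), of the thalianol cluster, was at 147, 152 and 112 against 402, 249.7 and 341 FPKM, and was not called with a pseudocount of 0.1. The 7 calls were the same in number without any 1 library.

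Other oxidising enzymes had some of the most negative interactions. AT1G52820, an oxygenase that uses oxoglutarate and iron, was at 11.6, 11.8 and 14.1 FPKM in ACC roots and 162, 94.3 and 125 FPKM in KMBA roots, and between 1.22 and 3.24 FPKM in shoots, where the groups overlapped (adjusted p = 0.605). Its interaction was -3.43 ± 0.32 (adjusted p = 0.000123). AT1G15540, of the same enzyme type, was at 0.251, 0.436 and 0.335 against 17.9, 6.70 and 11.1 FPKM in roots. CYP93D1 (AT5G06900), a cytochrome P450, was at 0.652, 0.757 and 0.840 against 21.0, 11.3 and 15.4 FPKM in roots. CYP712A2 (AT5G06905), the gene next to it, was at 0.260, 0.275 and 0.352 against 15.6, 7.03 and 10.3 FPKM. Of these, AT1G15540, CYP93D1 and CYP712A2 reached 1 FPKM in the KMBA root libraries alone, so they were not tested when a KMBA root library was left out.

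Of the 8 most positive interactions, 7 were of root genes higher with ACC, and the other was that of the thionin AT1G66100. AT4G33720, a cysteine-rich secreted protein of the PR-1 type, was at 1589, 1610.1 and 1774 FPKM in ACC roots and 56.1, 36.8 and 109.9 FPKM in KMBA roots, and at most 0.0468 FPKM in shoots. Its root difference of 4.74 (adjusted p = 1.09e-06) made up the interaction of 4.72 ± 0.38 (adjusted p = 4.96e-05). AT5G19890, a class III peroxidase, was at 57.4, 67.6 and 73.1 against 1.74, 1.28 and 3.74 FPKM in roots. AT1G49570, another peroxidase, was at 56.5, 59.6 and 70.0 against 4.41, 4.28 and 4.68 FPKM and was listed at 0 in all shoots.

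Class III peroxidases use hydrogen peroxide in the cell wall, where they can stiffen or loosen it. They went both ways: of 51 tested, 12 had a positive and 8 a negative interaction (median -0.06, near that of all genes). Prx37 (AT4G08770) was at 61.3, 73.5 and 78.2 FPKM in ACC roots and 13.9, 14.4 and 22.5 FPKM in KMBA roots, with at most 0.319 FPKM in shoots. AT4G11290 was higher with ACC in both organs, at 50.9, 51.4 and 52.5 against 14.5, 13.8 and 16.9 FPKM in roots (1.72, adjusted p = 1.36e-06) and at 1.23, 0.884 and 1.05 against 0.399, 0.273 and 0.591 FPKM in shoots (0.54, adjusted p = 0.00601). With a pseudocount of 0.1 the interactions of AT4G11290 and Prx37 were not called. The 8 negative calls fell to 4 without ACC shoots replicate 1, to 5 without ACC roots replicate 2, KMBA shoots replicate 1 or 2 or KMBA roots replicate 2, and to 3 without KMBA roots replicate 3.

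Another 4 root genes were among those with the most positive interactions. TH8 (AT1G69880), a thioredoxin, was at 39.8, 49.9 and 50.7 against 5.25, 6.99 and 6.13 FPKM in roots, and at most 0.586 FPKM in shoots. HB52 (AT5G53980), a homeodomain factor that acts between ethylene and auxin in roots, was at 18.5, 17.8 and 19.4 against 1.97, 2.32 and 2.3 FPKM in roots, and was not called with a pseudocount of 0.1. AT2G39980, an acyltransferase, was at 15.9, 11.3 and 10.7 against 1.53, 1.03 and 1.06 FPKM in roots, while its 6 shoot values, 2.52 to 3.33 FPKM, overlapped. AT5G40590, with a cysteine and histidine-rich domain, was at 12.5, 13.1 and 6.33 against 1.08, 0.783 and 0.827 FPKM in roots and was listed at 0 in shoots.

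Root hairs are outgrowths of root epidermal cells that ethylene lengthens. Of 18 tested genes of root hair growth, 8 had a positive and 0 a negative interaction (median 0.53), and all 8 were higher with ACC in roots. PRP1 (AT1G54970), a proline-rich wall protein, was at 58.4, 40.3 and 42.5 FPKM in ACC roots and 18.7, 9.33 and 14.2 FPKM in KMBA roots. RHS19 (AT5G67400), a root hair peroxidase, was at 34.2, 30.3 and 29.0 against 15.8, 8.34 and 15.2 FPKM, and RHS13 (AT4G02270) was at 40.5, 48.8 and 63.3 against 22.3, 14.9 and 28.0 FPKM. RHS18 (AT5G22410) was at 10.2, 10.2 and 10.5 against 7.44, 4.31 and 6.94 FPKM, and its interaction of 0.71 (adjusted p = 0.0361) was not called without any 1 of the ACC roots, ACC shoots or KMBA shoots. Of 18 genes, 15 were expressed in roots alone. The list had 4 calls without any 1 shoot library and without ACC roots replicate 1 or 2, 5 with the pool as a covariate or without a filter, 4 with median-ratio scaling and 3 with a pseudocount of 0.1, when RHS13 and RHS18 were not called.

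The Casparian strip and suberin lamellae seal the root endodermis. Of 19 tested genes, 8 had a negative and 0 a positive interaction (median -0.39). ABCG6 (AT5G13580) and ABCG2 (AT2G37360), transporters needed for suberin, were lower in ACC roots. ABCG6 was at 19.4, 18.16 and 18.7 against 29.5, 26.9 and 31.8 FPKM in roots (-0.62, adjusted p = 0.000278), and ABCG2 at 19.9, 17.8 and 19.3 against 25.8, 25.5 and 26.7 FPKM. CYP86B1 (AT5G23190), a hydroxylase of very long fatty acids, was at 12.2, 10.7 and 11 against 16.7, 16.9 and 18.6 FPKM in roots. KCS2 (AT1G04220), which elongates suberin acids, differed in shoots, at 2.96, 1.52 and 2.84 against 0.892, 1.05 and 0.673 FPKM (0.85, adjusted p = 0.00453), and its root difference of -0.36 did not pass (adjusted p = 0.135). With a pseudocount of 0.1 the list had 2 negative calls, and ABCG6 and CYP86B1 were not called. In the reference, ABCG2 and KCS2 share 95.2% and 58.4% of their stretches of 50 bases with another annotated gene at the same place. The sources used here do not say whether strand was used in counting, so both values are uncertain.

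Hypoxia genes are switched on when oxygen runs low, as in dense or flooded roots. Of 13 tested, 7 had a negative and 0 a positive interaction (median -0.52), 5 of them in roots alone and 2 in neither organ. AT4G33070, a pyruvate decarboxylase that opens alcoholic fermentation, was at 8.84, 7.03 and 6.22 FPKM in ACC roots and 29.3, 34.5 and 22.7 FPKM in KMBA roots, and between 0.416 and 0.907 FPKM in shoots. Its interaction was -2.10 ± 0.21 (adjusted p = 0.000191). AT3G10040, a repressor that limits the hypoxia response, was at 8.16, 7.88 and 9.09 against 18.24, 16.9 and 13.7 FPKM in roots. LBD41 (AT3G02550), a transcription factor of the response, was at 15.1, 18.5 and 19.2 against 30.4, 28.5 and 25.1 FPKM in roots, and its interaction was not called without KMBA roots replicate 1. FTM1 (AT1G43800), a desaturase, was at 3.00, 3.08 and 3.49 against 4.81, 5.35 and 6.37 FPKM. The 7 calls fell to 4 without KMBA shoots replicate 1 and to 3 without KMBA roots replicate 1.

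**Figure D4:**
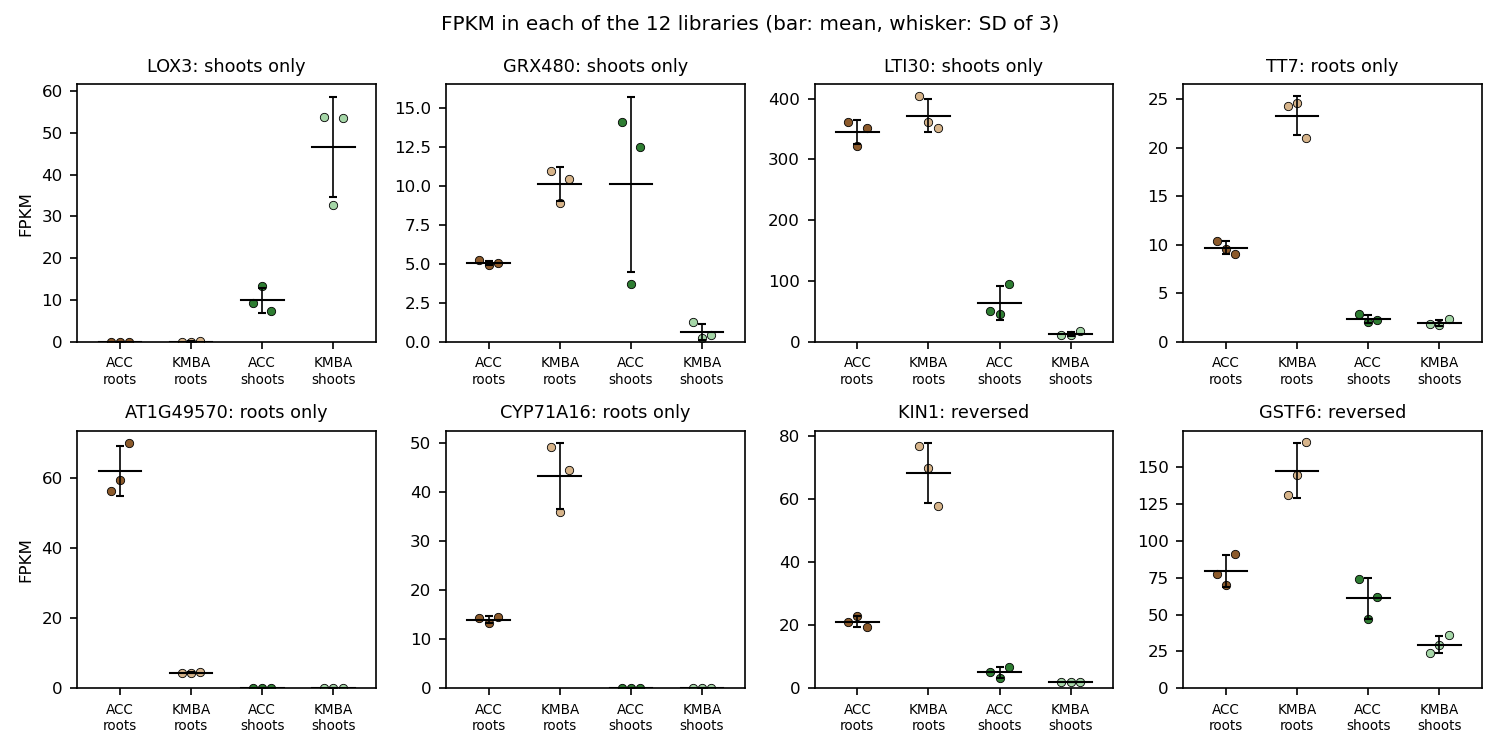
FPKM of 8 members in each of the 12 libraries, with the mean (bar) and SD (whisker) of 3 libraries per group, each panel on its own axis from 0. LOX3, GRX480 and LTI30 separate the compounds in shoots, TT7, AT1G49570 and CYP71A16 in roots, and KIN1 and GSTF6 in both organs in opposite directions, as for KIN1 at 19.6 to 23.0 against 58.0 to 76.9 FPKM in roots and 3.13 to 6.89 against 2.00 to 2.11 FPKM in shoots.

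Besides CYP83A1, PAL1 and PAL2, 10 reversed genes were named, and these were all lower with ACC in roots and higher with ACC in shoots. KIN1 (AT5G15960), a small protein of cold and water stress, was at 21.1, 23.0 and 19.6 FPKM in ACC roots and 76.9, 69.9 and 58.0 FPKM in KMBA roots (-1.64, adjusted p = 0.000139). In shoots it was at 5.08, 3.13 and 6.89 against 2.00, 2.08 and 2.11 FPKM (0.93, adjusted p = 0.00783), and the interaction was -2.56 ± 0.26 (adjusted p = 0.00023). GSTF6 (AT1G02930), a glutathione transferase, was present in both organs. It was at 77.4, 70.2 and 91.3 against 131, 145 and 167 FPKM in roots (-0.89, adjusted p = 0.00623) and at 74.4, 46.7 and 62.2 against 24.0, 29.1 and 35.9 FPKM in shoots (1.01, adjusted p = 0.00448). GSTF6 shares 9.41% of its stretches of 50 bases with GSTF7, so a part of its reads may be split.

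AT4G38860, a SAUR gene of the auxin response, was mainly a shoot gene, at 40.8, 30.6 and 40 against 19.0, 16.7 and 21.8 FPKM in shoots and 0.448, 0.558 and 0.812 against 2.25, 2.47 and 2.29 FPKM in roots. GLP9 (AT4G14630), a germin-like protein, was at 4.83, 5.83 and 3.85 against 14.5, 11.4 and 10.1 FPKM in roots and 1.66, 1.27 and 3.06 against 0.0542, 0.262 and 0.681 FPKM in shoots. SDR4 (AT3G29250), a short-chain dehydrogenase, was at 87.2, 80.3 and 62.4 against 183, 133 and 160.4 FPKM in roots and 1.68, 2.33 and 3.10 against 0.359, 1.26 and 1.29 FPKM in shoots. For each of these 5 genes the ACC and KMBA libraries did not overlap in either organ. The genes were chosen by differences that passed in both organs, so this adds no support. Over all tested genes, libraries did not overlap in 38.3% in roots and in 29.5% in shoots.

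AT4G12520 and AT4G12510, neighbouring genes of lipid-transfer-like proteins, were root genes. AT4G12520 was at 150.0, 118 and 159 against 338, 344 and 273 FPKM in roots and 5.17, 3.91 and 2.33 against 1, 0.355 and 0.810 FPKM in shoots. AT4G12510 was at 61.9, 54.7 and 67.7 against 179, 169 and 132 FPKM in roots and 1.31, 1.17 and 1.06 against 0.311, 0.159 and 0.269 FPKM in shoots. Their transcripts share 47.3% and 51.8% of stretches of 50 bases, so they are not separate evidence and either value is uncertain.

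The remaining 3 are annotated as regulators or have no described function. AT5G65300, whose function is not described in the annotation, was at 7.41, 6.94 and 7.47 against 12.9, 13.1 and 13.7 FPKM in roots (-0.78, adjusted p = 0.00235) and 14.6, 16.8 and 20.7 against 8.55, 8.30 and 12 FPKM in shoots (0.79, adjusted p = 0.00344). AT1G64380, a factor with an AP2-type DNA-binding domain, was at 4.72, 4.61 and 6.44 against 8.20, 10.1 and 9.49 FPKM in roots and 2.22, 2.1 and 2.70 against 0.897, 0.948 and 0.904 FPKM in shoots. AT1G17147, a VQ protein, a partner of WRKY factors, was at 18.1, 15.6 and 16.6 against 29.9, 24.1 and 29.5 FPKM in roots (-0.70, adjusted p = 0.0442) and 7.72, 3.24 and 3.95 against 0.961, 1.44 and 0.979 FPKM in shoots.

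Abscisic acid drives the response to drought and salt, which all of these plants met. Of 29 tested genes of abscisic acid, salt and dehydration, 11 had a negative and 1 a positive interaction (median -0.37). Of the 12, 5 differed in roots alone, 6 in shoots alone and 1, KIN1, was reversed. LTI30 (AT3G50970), a dehydrin that protects membranes, was at 50.5, 45.2 and 95.1 FPKM in ACC shoots and 11.5, 11.3 and 17.2 FPKM in KMBA shoots (2.12, adjusted p = 0.00028). Its root levels were higher than any shoot level and overlapped, at 361, 323 and 351 against 404, 362 and 351 FPKM. The interaction was -2.23 ± 0.33 (adjusted p = 0.00177). DREB2A (AT5G05410), a factor of drought and heat responses, was at 4.88, 3.07 and 6.84 against 1.40, 1.33 and 1.8 FPKM in shoots and 7.95, 10.2 and 9.60 against 15.8, 14.1 and 13.2 FPKM in roots. The root groups did not overlap, but the root difference did not pass (-0.59, adjusted p = 0.0551).

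COR15A (AT2G42540), a chloroplast protein of freezing tolerance, had the opposite pattern in organs. It was at 149, 145 and 161 against 183, 154 and 166 FPKM in shoots, which overlap, and at 1.77, 2.49 and 2.67 against 6.47, 5.53 and 6.10 FPKM in roots (-1.09, adjusted p = 5.34e-05). The 11 calls of the list fell to 7 without ACC roots replicate 2, KMBA shoots replicate 1 or 2, or KMBA roots replicate 1 or 3. Ion transport under salt had 0 of 8 genes called in limma (2 at an unadjusted p under 0.05), with a median interaction of -0.05.

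Ethylene response genes had medians above 0 in both organs, 0.71 in roots and 0.65 in shoots. At a fold over 2, 7 of 18 in roots and 4 in shoots were higher with ACC. Over all genes tested these shares were 0.539% in roots and 0.921% in shoots. The list had 4 positive and 2 negative calls of 18. ARGOS (AT3G59900), a membrane protein that lowers ethylene sensitivity, was at 9.52, 14.2 and 15.9 FPKM in ACC roots and 1.67, 1.11 and 1.11 FPKM in KMBA roots (2.61, adjusted p = 1.09e-05). In shoots it was at 2.17, 2.09 and 0.932 against 0.646, 0.526 and 0.903 FPKM (0.66, adjusted p = 0.0582). ERF11 (AT1G28370), a repressing ERF, was higher with ACC in both organs, at 17.1, 16.3 and 18.6 against 4.82, 4.08 and 5.37 FPKM in roots and 3.55, 2.48 and 4.02 against 1.25, 1.74 and 2.01 FPKM in shoots, and its interaction (0.98, adjusted p = 0.011) was not called with a pseudocount of 0.1.

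HCHIB (AT3G12500), a basic chitinase and classic ethylene target, was at 328, 313 and 346 against 150.1, 125 and 177 FPKM in roots. In shoots it was at 1.8, 1.06 and 1.54 against 0.962, 0.755 and 1.01 FPKM, and its interaction of 0.77 (adjusted p = 0.0225) was not called without ACC roots replicate 3 or KMBA roots replicate 1. ERF-1 (AT4G17500) went the other way, with 31.7, 28.8 and 33.5 against 34.3, 29.9 and 36.9 FPKM in roots, which overlap, and 19.3, 20.11 and 15.8 against 11.4, 7.50 and 9.98 FPKM in shoots (0.88, adjusted p = 0.00241). Of 13 receptor and signaling genes, 1 was called. RTE1 (AT2G26070), which supports the receptor ETR1, was at 6.98, 8.17 and 8.54 against 4.14, 4.79 and 4.77 FPKM in roots and 3.78, 3.92 and 4.05 against 3.25, 3.48 and 3.63 FPKM in shoots, an interaction of 0.53 ± 0.12 (adjusted p = 0.0144).

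Ethylene synthesis had 2 positive and 3 negative calls of 11, beside 2.93% positive and 7.4% negative over all genes tested. Of the 5 calls, 3 differed in roots alone, 1 in shoots alone and 1 was reversed. The list medians were -0.04 in roots and 0.04 in shoots, and only the 2 positive members are described here. AT1G77330, annotated as an oxygenase and placed in the list as an ACC oxidase, was at 53.1, 63.1 and 71.3 against 28.1, 32.1 and 27.4 FPKM in roots (1.07, adjusted p = 5.36e-05) and at most 0.268 FPKM in shoots. EFE (AT1G05010), an ACC oxidase that both organs express, was at 55.4, 53.0 and 55.8 against 33.6, 31.8 and 39.3 FPKM in roots (0.64, adjusted p = 0.00134). In shoots it was at 101, 106 and 122 against 103, 113 and 123 FPKM, which overlap, and the interaction was 0.68 ± 0.14 (adjusted p = 0.0112).

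Some photosynthesis genes differed in roots, where their levels are low. Of 18 Rubisco and Calvin cycle genes 5 were called, of 20 antenna genes 4 and of 28 photosystem genes 3, all negative and all differing in roots alone, beside 7.4% negative calls over all genes tested. RBCS3B (AT5G38410), a small subunit of Rubisco, was at 7.15, 13.5 and 9.79 FPKM in ACC roots and 29.0, 35.9 and 29.1 FPKM in KMBA roots (-1.57, adjusted p = 0.000168). In shoots it was between 5127 and 6830.4 FPKM with overlapping groups (adjusted p = 0.871). RBCS1B (AT5G38430), of the same cluster, was at 2.12, 4.76 and 3.50 against 12.4, 8.46 and 11.3 FPKM in roots, and shares 9.97% of its stretches of 50 bases with RBCS3B. NPQ4 (AT1G44575), the photosystem protein that senses excess light, was at 5.77, 7.54 and 6.94 against 12.9, 13.8 and 12.7 FPKM in roots, and LHCB2.1 (AT2G05100), an antenna protein, at 1.84, 1.70 and 1.70 against 4.07, 3.10 and 2.91 FPKM. The summed level of 9 leaf and stomata markers in roots was 95.8 to 146.5 FPKM with ACC and 217 to 236 FPKM with KMBA. In shoots it was 9008 to 11102 FPKM. RBCS1A, LHCB1.1 and RCA are among these markers and also in the lists above, so the sum is not a separate check. Of the 9 markers, 2 or 3 reached 1 FPKM in roots. The part of green tissue in the root result was not tested, and fewer cells of a type and less RNA per cell cannot be told apart in whole organs.

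Several lists held few or no members. Calls were 0 of 16 for cell division, 0 of 7 for the circadian clock, 0 of 6 for iron storage and 0 of 10 for reference genes (2, 0, 0 and 2 at an unadjusted p under 0.05 in limma, and 0 called without the trend), and 1 of 21 for iron deficiency and uptake, 1 of 21 for methionine and its salvage and 1 of 11 for heat shock (4, 5 and 8 at an unadjusted p under 0.05). Summed FPKM of the reference genes was not level between compounds in shoots, at 896 to 1007.5 with ACC and 718 to 777 with KMBA. In roots this sum was 1528.5 to 1598 with ACC and 1479 to 1512 with KMBA. The heat shock list had a median interaction of -0.76, with medians of -0.36 in roots and 0.40 in shoots. Beside 7.4% negative and 2.93% positive calls over all genes tested, WRKY factors had 11 negative and 1 positive call of 54 (7 negative without KMBA roots replicate 3), and glutathione transferases 11 negative and 2 positive of 39. The latter fell to 6 or 7 negative calls without ACC shoots replicate 3, ACC roots replicate 2, KMBA shoots replicate 2 or any 1 of the KMBA roots.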

How the data were processed

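FPKM values (fragments scaled to transcript length and to all mapped reads) of 27371 genes in 18 libraries were deposited by the authors, who per the labels used FastQC 0.11.5, Trimmomatic 0.36, TopHat on TAIR10 and Cufflinks 2.2.1. The submitters' processing notes also name featureCounts 1.5.1 and Cuffdiff. No scaling between libraries and no use of strand is given in the sources used here. Read numbers cannot be recovered from FPKM, so depth is unknown and precision rests on the spread between libraries.

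Groups followed the labels. The 12 ACC and KMBA libraries were fitted on log2(FPKM + 1) by limma 3.58.1 (R 4.3.3; eBayes with a trend on mean level, 8 residual degrees of freedom), with 1 mean per group and 2-sided tests. A gene was tested if 3 or more libraries reached 1 FPKM, with Benjamini-Hochberg adjustment over all of them. A pseudocount of 1 shrinks differences of genes at low levels, so an organ with under 1 FPKM shows nearly none. Since FPKM are not counts, no count test was run. The interaction was called at adjusted p under 0.05, and an organ's own difference also at a fold over 2 where stated.

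Names, lengths and GC content came from RefSeq TAIR10.1 by locus ID (26703 matched), as did the promoters (250 bases before the annotated start). The table itself holds no coordinates. Of each named transcript, stretches of 50 bases were compared with all other transcripts. Shares not given above included 30.6% of HCHIB with AT3G12502, 22.7% of LHCB2.1 with LHCB2.2 and 14.5% of AT2G39980 with AT2G39975. AT4G14090 shared 10.5% with AT4G06175 and 11.3% with AT4G14100. A part of the reads of these genes may be split. Members and the 43 gene lists were chosen with earlier results of these data known. Genes were named by a rule among members whose highest group mean reached 5 FPKM: the 8 most positive and 8 most negative interactions, up to 10 reversed genes with the largest smaller difference, the 4 largest shoot differences in each direction among genes that differed in shoots alone, and up to 4 members of lowest p from each list described. AT3G01190, AT4G33120, PYK10, FMA and YAB3 are outside it. The fit was tested on simulated data. Alternatives were a pseudocount of 0.1, no filter, a filter of 5 FPKM, median-ratio scaling, eBayes without a trend, all 18 libraries, a covariate for the shoot pool, a block for the replicate number, subtraction of each library's lowess trend (span 0.3) on length and GC, and each library left out. Treating 24 isolated zeros in 17 genes (beside at least 10 FPKM in the rest of the group) as missing was chosen after seeing the data. Python 3.11.15 with matplotlib 3.10.9 drew the plots.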

Additional observations from a re-analysis of the deposited data

Results flagged for a closer look

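Each member was singled out because its difference between ACC and KMBA departed between roots and shoots in the test of that difference itself, and 1895 genes did so at an adjusted p under 0.05 (limma). The 82 genes named in the text are listed with their interaction on the log2(FPKM + 1) scale, grouped by the organ in which their own difference passed. In roots the compound and the sequencing pool cannot be told apart.

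Among the genes that differed in roots alone, the interaction was positive for AT4G33720 at 4.72, AT5G19890 at 4.41, AT1G49570 at 3.52, AT5G40590 at 2.56, AT2G39980 at 2.51, TH8 at 2.4, HB52 at 2.24, ARGOS at 1.95, Prx37 at 1.77, PRP1 at 1.70, RHS19 at 1.25, RHS13 at 1.21, AT1G77330 at 1.02, HCHIB at 0.77, RHS18 at 0.71, EFE at 0.68 and RTE1 at 0.53. It was negative for AT1G52820 at -3.43, AT1G15540 at -3.25, CYP93D1 at -3.21, CYP712A2 at -3.13, AT4G33070 at -2.10, CYP705A12 at -1.68, RBCS3B at -1.64, MRN1 at -1.57, CYP71A16 at -1.52, AT4G14090 at -1.45, RBCS1B at -1.40, TT7 at -1.36, TT5 at -1.29, CYP705A5 at -1.23, 4CL3 at -1.04, LHCB2.1 at -1.01, AT3G10040 at -0.98, COR15A at -0.95, NPQ4 at -0.74, FTM1 at -0.68, LBD41 at -0.67, ABCG6 at -0.66, ABCG2 at -0.61 and CYP86B1 at -0.58.

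Among the genes that differed in shoots alone, it was positive for AT1G66100 at 2.37, LOX3 at 2.07, AOC1 at 1.97, NUDT8 at 1.90, CYP79F1 at 1.61, OPR3 at 1.61, IPMI1 at 1.43, LOX4 at 1.06, OPCL1 at 0.84 and FMO GS-OX3 at 0.78. It was negative for BGL2 at -3.79, GRX480 at -3.50, AT1G53625 at -3.34, CML37 at -3.31, YLS9 at -3.09, AT5G10760 at -3.01, PR1 at -2.60, LTI30 at -2.23, AT4G12490 at -1.87, DREB2A at -1.78, PR5 at -1.58, KCS2 at -1.22, FLS2 at -1.05, WRKY33 at -0.99, ERF-1 at -0.98 and BIK1 at -0.42.

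Among the genes that differed in opposite directions, it was positive for CYP83A1 at 1.12. It was negative for AT4G12520 at -2.61, KIN1 at -2.56, GLP9 at -2.30, AT4G12510 at -2.17, AT1G17147 at -2.12, AT4G38860 at -1.97, GSTF6 at -1.90, SDR4 at -1.84, AT5G65300 at -1.58, AT1G64380 at -1.52, PAL2 at -1.07 and PAL1 at -0.82.

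Among the genes that differed in both organs in the same direction, it was positive for AT4G11290 at 1.18 and ERF11 at 0.98.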

How the results depend on the processing

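The counts of calls, by direction, class and list, and the interactions of the named genes were recomputed under 22 alternatives. All 82 named genes kept the sign of their interaction wherever they were tested. 49 of them were tested and called under every alternative, and 54 were called wherever they were tested. The limits are the number of libraries, the pool that goes with the compound in roots, the unknown depth, and a log scale on which low genes differ little. Where a count moved, the cause was not tested. Fitting all 18 libraries, including the shoots without a compound and those with SA187, called 1179 genes, with 799 negative, 30 reversed, 266 in shoots alone and 7 in both organs with the same sign. It called 6 positive jasmonate genes, 3 negative salicylate, 4 immunity, 7 anthocyanin and 5 glutathione transferase genes. Of the named genes 17 lost their call there, namely ABCG2, AT1G53625, AT4G12490, AT5G10760, BGL2, BIK1, CML37, COR15A, EFE, ERF11, HCHIB, LBD41, LHCB2.1, LOX4, PR1, PR5 and SDR4. With a pseudocount of 0.1 there were 303 positive calls, 405 and 478 genes past the fold limit in roots and shoots, and 524 members in roots alone, and the lists had 4 positive jasmonate, 4 negative hypoxia, 3 positive root hair, 2 negative suberin and 5 positive and 5 negative peroxidase calls. It ended the call of 15 named genes, namely ABCG6, AOC1, AT1G77330, AT4G11290, CYP705A5, CYP86B1, ERF11, HB52, HCHIB, LBD41, LOX4, NUDT8, Prx37, RHS13 and RHS18. A filter of 5 FPKM gave 343 positive calls, 2 negative salicylate and 5 negative peroxidase genes. Root hair calls were 5 without a filter, 4 with median-ratio scaling and 5 with the shoot pool as a covariate. Subtracting the trends on length and GC content gave 790 positive and 1080 negative calls.

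Replicates shared only a number. Over 18 pairs of libraries with the same number, deviations from the group means correlated between -0.09 and 0.30, and 7 pairs exceeded 0.1. With the replicate number as a block 2206 genes were called, 1829 of them also called without it, 170 were reversed, and no named gene lost its call.

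Leaving out 1 library at a time gave 1227 to 1985 calls, 325 to 536 positive and 853 to 1491 negative. Genes past the fold limit numbered 204 to 226 in roots and 189 to 274 in shoots. The classes held 52 to 139 reversed genes, 649 to 877 in roots alone, 418 to 808 in shoots alone, 9 to 37 in both with the same sign and 80 to 140 in neither. Lists ranged from 7 to 10 positive jasmonate calls, 14 to 16 aliphatic glucosinolate, 4 to 10 root hair and 9 to 12 peroxidase. Negative calls ranged from 5 to 8 for salicylate, 4 to 8 for immunity, 10 to 14 for anthocyanin, 7 to 7 for triterpene, 3 to 7 for hypoxia, 7 to 11 for abscisic acid, 7 to 9 for suberin, 7 to 13 for WRKY, 6 to 12 for glutathione transferases and 3 to 9 for peroxidases.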
